A study of Mus musculus with 8 samples.

Results

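Wnt ligands are the secreted proteins that start Wnt signaling, and 10 of the 16536 genes in the count table were taken up here by name: *Wnt2*, *Wnt2b*, *Wnt4*, *Wnt5a*, *Wnt5b*, *Wnt7b*, *Wnt9a*, *Wnt10b*, *Wnt11*, and *Wnt16*. The table held 12 of the 19 mouse Wnt ligand genes. *Wnt8a* and *Wnt8b* were the other 2, and the remaining 7 were not analysed here. The questions were which ligands were expressed in the sorted growth plate cells and which differed after activation of the Hedgehog (Hh) pathway.

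RNA came from mCherry+CD73+ cells sorted from the dissected growth plate region of Pthrp-mCherry mice, with 1 library per mouse and 4 mice in each group. In these mice mCherry reports activity of *Pthlh*, the gene of parathyroid hormone–related protein, and CD73 is the product of *Nt5e*. Both groups carried the reporter. One group received SAG, an agonist that binds Smoothened, the transducer of Hh signals, by i.p. injection at 25 μg/g once daily, from day 30 to day 36 after birth or, by the methods, 1 day later, and the other received the DMSO vehicle. All mice were killed at day 38. Male and female mice were used in the study, and the labels give no sex for a library. SAG was given to the whole animal, so the cells sorted were not the only cells exposed.

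Wnt ligands are lipid-modified by the acyltransferase Porcupine and carried to the cell surface by Wntless. At the receiving cell they bind Frizzled receptors, either together with the coreceptors Lrp5 and Lrp6, which stabilizes β-catenin, or with receptors such as Ror2, which acts without β-catenin. *Wnt5a* and *Wnt5b* are known for roles in the order and maturation of growth plate chondrocytes. *Wnt4* and *Wnt9a* are known for roles in joints and chondrocyte maturation, and *Wnt16* for its effect on cortical bone.

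The libraries held between 24971992 and 46593090 counts, so that 3 counts, the floor below which a level was not read, were worth 0.0670 to 0.114 CPM. CPM is the count of a gene relative to the total of its library, with the totals adjusted by edgeR's TMM factors. This floor covers counting error only. DMSO replicate 4 stood apart from the rest. It had the fewest counts, 24971992, and the fewest genes above 0, at 14416 against 15524 to 16285 in the other libraries. Its Spearman rank correlation with the other DMSO libraries across genes was between 0.830 and 0.859, and the other DMSO pairs lay between 0.925 and 0.937. The 12 chondrocyte markers summed to between 47364 and 108940 CPM in the DMSO group, lowest in DMSO replicate 4, and to between 18950 and 53379 CPM in the SAG group. The 10 neutrophil markers summed to between 4328 and 12846 CPM in the DMSO group and between 24291 and 38379 CPM in the SAG group. The 9 B lineage markers summed to between 84.0 and 383 CPM in the DMSO group, highest in DMSO replicate 4, and to between 20.8 and 46.4 CPM in the SAG group. The 4 hypertrophic chondrocyte markers summed to between 253 and 897 CPM in the DMSO group and between 110 and 180.4 CPM in the SAG group, with a median log2 fold change of -2.40 and 2 of 4 called lower by edgeR, against 0.266% of all genes. No listed marker of these 4 cell types was at 0 in every library. In bulk RNA, fewer cells of a type and less RNA per cell cannot be told apart. The part of these markers in the ligand values was not tested. Below, each ligand is set against the chondrocyte markers as a description only. All 12 of these markers had a log2 fold change below 0 themselves. For *Gli1*, a transcriptional target and effector of Hh signaling, the log2 fold change was -1.49 ± 0.37 (SE, n = 4 per group), and for *Ptch1*, the Hh receptor and a target gene, it was -1.21 ± 0.34, with adjusted p = 0.057 and 0.086 (edgeR's quasi-likelihood test, Benjamini-Hochberg adjusted), so neither was called by that test. Of the 3 Hh genes listed, *Gli1*, *Ptch1*, and *Hhip*, DESeq2 called 2 lower and edgeR without DMSO replicate 4 also called 2 lower, against 3.23% and 2.17% of all genes. Only *Gli1* of the 3 had all SAG mice below all DMSO mice, against 3.84% of all genes.

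The promoters of 8 of the 10 ligand genes were found in RefSeq, as 11 windows of 300 bases on GRCm38.p6, each from 250 bases before to 50 bases after a transcription start. *Wnt5a* and *Wnt7b* had no entry. The windows were searched on both strands for CTTTGAT, the core bound by the TCF/LEF factors of the Wnt pathway, for GACCACCCA, the core bound by the Gli factors of the Hh pathway, and for TATAAA. The TCF/LEF core occurred in 2 of the 11 windows and in 3.73% of all 32851 windows in the RefSeq table. The Gli core occurred in 0 of the 11 and in 0.253% of all windows, and TATAAA in 1 of the 11 and in 13.6% of all windows. The 2 windows with a TCF/LEF core are shown because they belong to the most abundant ligands of the data, *Wnt5b* and *Wnt11*. The first is the window at the annotated start of *Wnt11* (chr7:98834862-98835161, plus strand), and the capitals mark the TCF/LEF core, read on the opposite strand at position -51 from the start site, followed by TATAAA at position -29. The second lies at an internal start site of *Wnt5b* (chr6:119449337-119449636, minus strand), with the core in capitals at position -71. The windows at the other 2 start sites of *Wnt5b* held none of these motifs.
Wnt11: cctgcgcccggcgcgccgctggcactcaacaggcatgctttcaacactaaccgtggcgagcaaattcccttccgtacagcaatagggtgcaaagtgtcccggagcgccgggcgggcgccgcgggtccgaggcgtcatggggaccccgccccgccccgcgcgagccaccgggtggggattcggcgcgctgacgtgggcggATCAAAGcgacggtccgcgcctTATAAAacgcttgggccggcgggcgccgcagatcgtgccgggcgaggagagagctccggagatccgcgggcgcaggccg
Wnt5b: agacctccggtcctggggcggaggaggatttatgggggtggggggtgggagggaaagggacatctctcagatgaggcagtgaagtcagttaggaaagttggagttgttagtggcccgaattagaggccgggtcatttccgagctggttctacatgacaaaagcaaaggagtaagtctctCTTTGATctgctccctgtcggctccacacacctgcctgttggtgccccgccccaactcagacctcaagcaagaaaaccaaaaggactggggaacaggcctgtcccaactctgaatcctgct
A match to such letters is a description of the window and shows no binding of a factor.

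Of the 10 ligands, 4 had a mean count of at least 100 over the 8 libraries: *Wnt5b*, *Wnt11*, *Wnt4*, and *Wnt5a*. These 4 were above 0 in every library, although *Wnt5a* had a single count in DMSO replicate 4, below the floor of 3 counts. *Wnt5b* and *Wnt11* were above 1 CPM in all 8. The other 6 were each at 0 in at least 2 of the 8 libraries. Since *Wnt2* and *Wnt7b* did not pass edgeR's filter on low counts, 8 of the 10 were tested. Among these 8, 4 were at 0 in at least 1 library, against 14.3% of all tested genes.

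**Figure D1:**
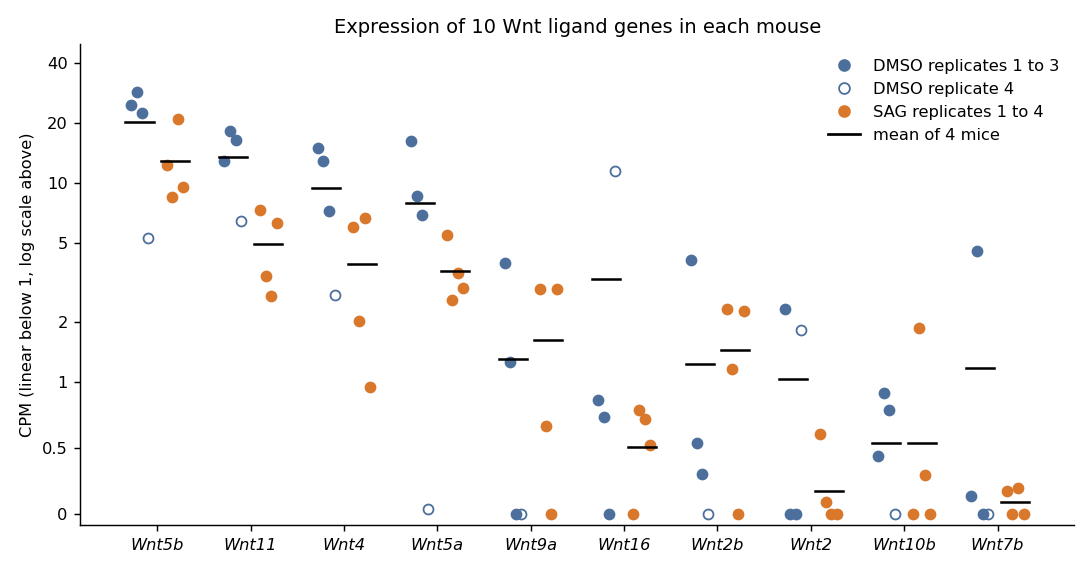
Level of each of the 10 Wnt ligand genes in every mouse, in CPM on an axis that is linear below 1 and logarithmic above, with DMSO in blue, SAG in orange, DMSO replicate 4 as an open circle, and the mean of 4 mice as a bar. *Wnt5b*, *Wnt11*, *Wnt4*, and *Wnt5a* were above 0 in all mice, and for each of them the SAG mice lay below DMSO replicates 1 to 3 but not all below DMSO replicate 4. *Wnt5a* in DMSO replicate 4 was a single count, below the floor.

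To set ligands beside each other, CPM was divided by the exonic length of each gene. *Wnt5b* had the highest level in both groups, at 7.63 ± 3.87 CPM per kb (SD, n = 4) in the DMSO group and 4.84 ± 2.16 in the SAG group. *Wnt11* came next, at 3.26 ± 1.26 CPM per kb in the DMSO group and 1.19 ± 0.534 in the SAG group. *Wnt4* followed in both groups, at 2.25 ± 1.32 and 0.932 ± 0.677 CPM per kb. *Wnt5b* was above *Wnt11* in 8 of 8 libraries, and in the SAG group the ranges of these 2 ligands did not overlap. *Wnt11* was above *Wnt4* in 6 of 8 libraries, with a difference within a mouse of 0.635 ± 1.02 CPM per kb (SD, n = 8), which was smaller than its spread. *Wnt4* was above *Wnt5a* in 7 of 8 libraries, with a difference within a mouse of 0.853 ± 0.684 CPM per kb. The ranges of both pairs overlapped in the DMSO group and in the SAG group.

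Below these 3 the order differed between the groups, with every neighbor overlapping the next. In the DMSO group mean levels in CPM per kb were 1.01 for *Wnt5a*, 0.751 for *Wnt16*, 0.460 for *Wnt2*, 0.392 for *Wnt9a*, 0.294 for *Wnt2b*, 0.238 for *Wnt7b*, and 0.158 for *Wnt10b*. In the SAG group they were 0.489 for *Wnt9a*, 0.464 for *Wnt5a*, 0.344 for *Wnt2b*, 0.158 for *Wnt10b*, 0.116 for *Wnt16*, 0.0775 for *Wnt2*, and 0.0190 for *Wnt7b*. The fifth place of *Wnt16* in the DMSO group came from 1 mouse, as its values below show.

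Expressed as a share of the summed CPM per kb of the 10 ligands, *Wnt5b* made up 43.8% ± 12.8 (SD, n = 4) in the DMSO group and 55.0% ± 12.2 in the SAG group. *Wnt11* made up 20.3% ± 4.67 and 14.4% ± 6.38, *Wnt4* 12.7% ± 3.50 and 9.89% ± 5.39, and *Wnt5a* 5.14% ± 3.90 and 5.38% ± 1.10. The ranges of the groups overlapped for each of these 4 shares. Together these 4 ligands held between 55.0% and 98.0% of the sum in the DMSO group, lowest in DMSO replicate 4, and between 78.8% and 97.3% in the SAG group. The sum itself was 16.4 ± 6.53 CPM per kb in the DMSO group and 8.63 ± 2.34 in the SAG group. DMSO replicates 1 to 3 had sums of 21.6, 21.2, and 15.3 CPM per kb, and DMSO replicate 4 had 7.66, within the SAG range of 6.06 to 10.9.

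**Figure D2:**
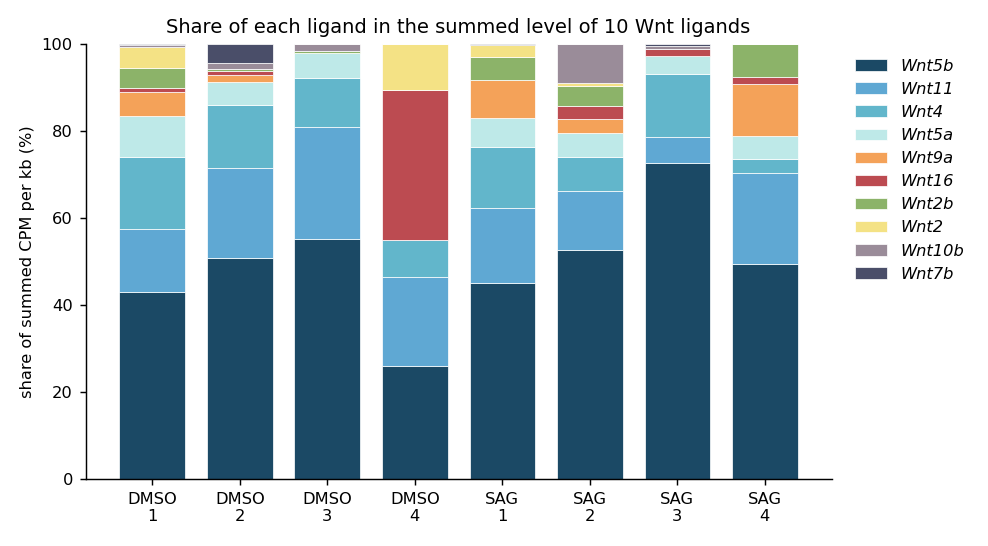
Share of each ligand in the summed CPM per kb of the 10 ligands, as stacked bars in percent for each of the 8 mice. *Wnt5b* was the largest share in 7 of 8 mice, and in DMSO replicate 4 *Wnt16* (34.5%) exceeded *Wnt5b* (26.2%).

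By edgeR's quasi-likelihood test with Benjamini-Hochberg adjustment, 0 of the 8 tested ligands had an adjusted p under 0.05, against 2.89% of all 15421 tested genes in either direction (0.266% lower and 2.62% higher in the SAG group). At an unadjusted p under 0.05, 1 ligand was lower, against 6.5% of all genes, and 0 were higher, against 9.58%. The log2 fold change was below 0 in 5 of the 8, against 54.8% of all genes. None of the 8 had all SAG mice below all DMSO mice, against 3.84% of all genes, or all above, against 7.9%. Without DMSO replicate 4, the SAG mice lay below the DMSO mice in 4 of the 8, against 11.2% of all genes, and these 4 were *Wnt5b*, *Wnt11*, *Wnt4*, and *Wnt5a*. This separation was not particular to the ligands, since each listed chondrocyte marker showed it too. Those markers summed to at least 83790 CPM in DMSO replicates 1 to 3 and at most 53379 CPM in the SAG mice. DMSO replicate 4 was the lowest DMSO mouse in 6 of the 8, against 38.5% of all genes, so leaving it out favors such a separation. DESeq2, which gave an adjusted p to 4 of the 8, called 1 ligand lower and 0 higher, against 3.23% and 6.6% of all genes (9.83% in either direction). Limma voom with sample quality weights called 1 of 8 lower and 0 higher, against 2.58% and 6.45% (9.03%). Without DMSO replicate 4, edgeR called 1 of 8 lower and 0 higher, against 2.17% and 6.44% (8.62%). The ligand called lower was *Wnt11* each time.

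*Wnt11* encodes a ligand that acts largely without β-catenin and guides cell movement during development. The gene lies on chromosome 7 of GRCm38 from 98835112 to 98855195 on the plus strand, with the promoter window printed above at its start. Its level was 12.9, 18.3, 16.4, and 6.42 CPM in DMSO replicates 1 to 4 and 7.27, 3.40, 2.72, and 6.32 CPM in SAG replicates 1 to 4. DMSO replicates 1 to 3 were above all SAG mice, while DMSO replicate 4 was below SAG replicate 1 and just above SAG replicate 4. The group means were 13.5 ± 5.21 CPM (SD, n = 4) and 4.93 ± 2.21 CPM. The log2 fold change was -1.45 ± 0.51 (SE), with an adjusted p of 0.168 and an unadjusted p of 0.0148 by edgeR's quasi-likelihood test with Benjamini-Hochberg adjustment. *Wnt11* was therefore not called by that test. It was lower with an adjusted p of 0.0413 by DESeq2 and 0.0259 by limma voom, and with 0.0382 by edgeR without DMSO replicate 4, where the log2 fold change was -1.66 ± 0.44. The adjusted p ranged from 0.0259 to 0.412 over the alternatives tried, and the log2 fold change from -1.76 to -1.25.

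*Wnt5b* encodes a ligand of the same kind, close in sequence to *Wnt5a*, and lies on chromosome 6 from 119432531 to 119544347 on the minus strand. Its level was 24.7, 28.5, 22.4, and 5.31 CPM in DMSO replicates 1 to 4 and 12.3, 8.46, 21.1, and 9.53 CPM in SAG replicates 1 to 4. DMSO replicate 4 was the lowest of all 8 mice, and SAG replicate 3 came close to the other DMSO mice. The means were 20.2 ± 10.3 CPM (SD, n = 4) and 12.9 ± 5.72 CPM, and the log2 fold change of -0.66 ± 0.50 (SE) was not called (adjusted p = 0.597, edgeR's quasi-likelihood test, Benjamini-Hochberg adjusted). Without DMSO replicate 4 the log2 fold change was -0.94 ± 0.36, with an adjusted p of 0.135 from edgeR.

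*Wnt4* encodes a ligand that can signal with or without β-catenin, and lies on chromosome 4 from 137277489 to 137299726 on the plus strand. Its level was 14.9, 12.8, 7.25, and 2.73 CPM in DMSO replicates 1 to 4 and 6.04, 2.02, 6.63, and 0.958 CPM in SAG replicates 1 to 4. DMSO replicates 1 to 3 were above all SAG mice, with a gap of less than 1 CPM between DMSO replicate 3 and SAG replicate 3, and DMSO replicate 4 lay within the SAG range. The means were 9.43 ± 5.52 CPM (SD, n = 4) and 3.91 ± 2.84 CPM. The log2 fold change was -1.27 ± 0.73 (SE), with an adjusted p of 0.451 (edgeR's quasi-likelihood test, Benjamini-Hochberg), and the smallest adjusted p over the alternatives was 0.0824, from limma voom.

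*Wnt5a* encodes the best known ligand of the β-catenin–independent branch, which signals through Ror2, and lies on chromosome 14 from 28504750 to 28527448 on the plus strand. Its level was 16.2, 8.55, 6.91, and 0.0380 CPM in DMSO replicates 1 to 4 and 5.46, 2.57, 3.51, and 2.97 CPM in SAG replicates 1 to 4. The value in DMSO replicate 4 was a single count, below the floor of 3 counts, in a library in which *Wnt5b* had 140 counts. The SAG mice lay together between DMSO replicate 4 and the other DMSO mice. The means were 7.92 ± 6.63 CPM (SD, n = 4) and 3.63 ± 1.28 CPM, and the log2 fold change of -1.13 ± 1.01 (SE) was not called (adjusted p = 0.669, edgeR's quasi-likelihood test with Benjamini-Hochberg adjustment). On the scale of mean log2 CPM, where that single count weighs more, the difference had the opposite sign, at 0.21. Without DMSO replicate 4 the log2 fold change was -1.51 ± 0.50, with an adjusted p of 0.0868 from edgeR.

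**Figure D3:**
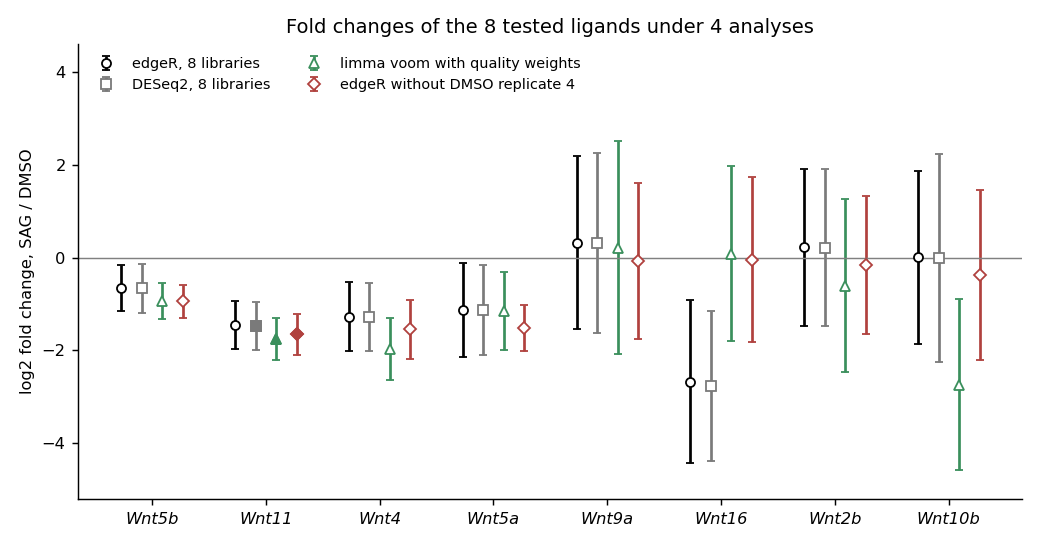
Log2 fold change (SAG over DMSO) of the 8 tested ligands under edgeR, DESeq2, limma voom with sample quality weights, and edgeR without DMSO replicate 4, with bars of 1 standard error. Filled symbols have an adjusted p under 0.05, which was the case for *Wnt11* under the latter 3 analyses and for no other ligand.

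The other 6 ligands were low and uneven between mice. *Wnt16*, a ligand known for its role in cortical bone, was at 0.863, 0.737, 0, and 11.5 CPM in DMSO replicates 1 to 4 and at 0, 0.784, 0.722, and 0.525 CPM in SAG replicates 1 to 4. DMSO replicate 4 alone held 303 counts, which were 66.2% of all *Wnt16* counts, and the other DMSO mice lay between 0 and 0.863 CPM, against 0 to 0.784 CPM in the SAG mice. The log2 fold change was -2.68 ± 1.75 (SE; adjusted p = 0.519, edgeR's quasi-likelihood test, Benjamini-Hochberg adjusted) with that library and -0.04 without it.

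*Wnt9a*, a ligand of the joint-forming region, was at 3.96, 1.25, 0, and 0 CPM in DMSO replicates 1 to 4 and at 2.93, 0.665, 0, and 2.92 CPM in SAG replicates 1 to 4. *Wnt2b* was at 4.10, 0.536, 0.302, and 0 CPM in the DMSO mice and at 2.33, 1.16, 0, and 2.28 CPM in the SAG mice. These 2 ligands were at or near their highest in the same mice, DMSO replicate 1 and SAG replicates 1 and 4, and both groups ranged from 0 upward. *Wnt10b*, a ligand of the β-catenin branch known to favor osteoblasts over adipocytes, was at 0.443, 0.915, 0.785, and 0 CPM in the DMSO mice and at 0, 1.85, 0.299, and 0 CPM in the SAG mice. Log2 fold changes were 0.32 ± 1.86 (SE) for *Wnt9a*, 0.22 ± 1.69 for *Wnt2b*, and 0.0034 ± 1.87 for *Wnt10b*, with adjusted p between 0.960 and 1.00 by edgeR's quasi-likelihood test with Benjamini-Hochberg adjustment. With standard errors above 1.5 on the log2 scale, a difference of several fold was not detectable for these ligands in either direction.

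The 2 ligands outside the test were each at 0 in 4 mice. *Wnt2* was at 2.33, 0, 0, and 1.82 CPM in the DMSO mice and at 0.604, 0.0951, 0, and 0 CPM in the SAG mice. *Wnt7b* was at 0.140, 4.53, 0, and 0 CPM in the DMSO mice and at 0.172, 0, 0.199, and 0 CPM in the SAG mice, so that 91.0% of its counts came from DMSO replicate 2. *Wnt4*, *Wnt5a*, *Wnt9a*, *Wnt2b*, and *Wnt2* were all highest in DMSO replicate 1, and the share of all genes highest in that library was not computed. The summed levels of the chondrocyte markers (108940 CPM), the hypertrophic markers (897 CPM), the ligand-making genes (641 CPM), and the 7 osteoblast markers (7483 CPM, of which 5971 CPM was *Col1a1*) were also highest in that library. So were those of the Wnt receptors and coreceptors (655 CPM), the secreted antagonists (968 CPM), and the Hh genes (1040 CPM). The sums of the Wnt target genes, the neutrophil markers, and the B lineage markers, among others, were highest in other libraries. The part of these lists in the ligand values was not tested.

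The 12 chondrocyte markers had a median log2 fold change of -1.01. Of these, edgeR called 0, DESeq2 called 6 lower, and edgeR without DMSO replicate 4 called 8 lower, against 0.266%, 3.23%, and 2.17% of all genes. Each ligand was therefore also expressed on the log2 scale relative to the mean of these markers in the same library. On this scale the difference between the groups (SAG minus DMSO) was -0.35 for *Wnt11*, -0.28 for *Wnt4*, 0.60 for *Wnt5b*, and 1.31 for *Wnt5a*. The value for *Wnt5a* rests on its single count in DMSO replicate 4, which is below the floor of 3 counts. Relative to DMSO replicates 1 to 3 alone, it was -0.40 for *Wnt11*, -0.50 for *Wnt4*, 0.32 for *Wnt5b*, and -0.11 for *Wnt5a*. The groups overlapped for all 4 ligands, with and without DMSO replicate 4. For *Wnt11* the values were -7.54, -6.86, -6.78, and -7.23 in DMSO replicates 1 to 4 and -7.10, -6.87, -8.39, and -7.46 in SAG replicates 1 to 4. Only SAG replicate 3 lay below every DMSO mouse, so the separation of *Wnt11* from DMSO replicates 1 to 3 in CPM was not seen relative to the cartilage genes. SAG replicate 4 was the mouse with the lowest *Wnt4* relative to these markers, at -10.12, and the other SAG mice lay between -7.61 and -7.12, within or above the DMSO range of -8.45 to -7.33.

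**Figure D4:**
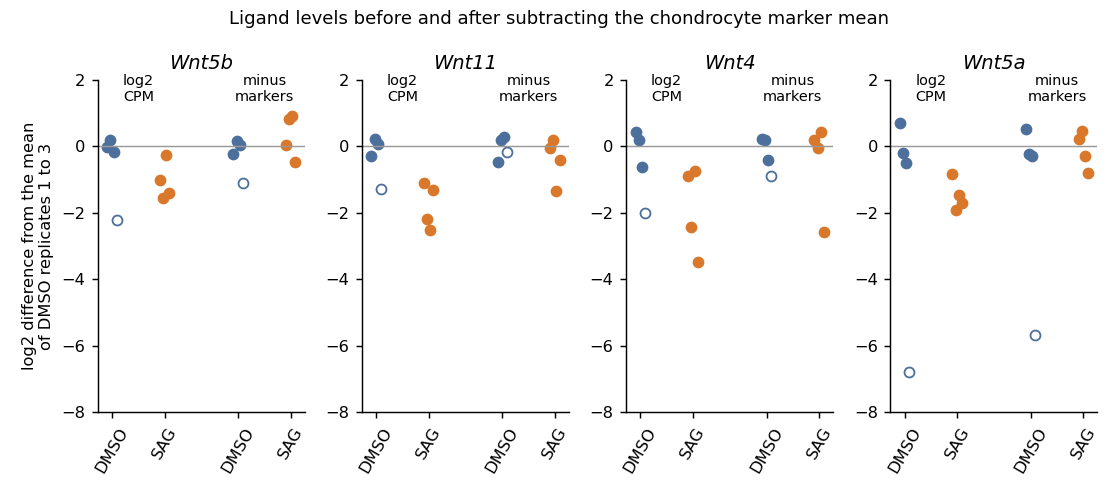
Log2 CPM of *Wnt5b*, *Wnt11*, *Wnt4*, and *Wnt5a* in each mouse, as difference from the mean of DMSO replicates 1 to 3, before (left in each panel) and after (right) subtraction of the mean log2 CPM of 12 chondrocyte markers, with DMSO replicate 4 as an open circle. Before subtraction all SAG mice lay below DMSO replicates 1 to 3, and after it the groups overlapped for each ligand.

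Genes that act before, beside, and after the ligands were described from lists chosen by function, each read against the median log2 fold change of -0.08 over all tested genes. Of the 8 genes for making, releasing, and binding ligands, 0 were called in either direction, against 2.89% of all genes, and all 8 had a log2 fold change below 0, against 54.8%, with a median of -0.57. Without DMSO replicate 4, edgeR called 1 of them lower, against 2.17% of all genes. *Wls*, the gene of Wntless, was at 49.5 ± 13.7 CPM (SD, n = 4) in the DMSO group and 47.6 ± 7.26 CPM in the SAG group, with a log2 fold change of -0.06 ± 0.25 (SE). *Porcn*, the gene of Porcupine, was low, at 1.84 ± 2.24 and 1.01 ± 1.50 CPM. For *Notum*, a secreted enzyme that removes the lipid from Wnt ligands, the value was -1.23 ± 0.54 (adjusted p = 0.282, edgeR's quasi-likelihood test with Benjamini-Hochberg adjustment). *Trabd2b*, a protease that cuts Wnt ligands, had -0.50, and the cell surface proteoglycan genes *Gpc3*, *Gpc4*, *Gpc6*, and *Sdc1* had values between -0.63 and -0.56.

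Of the 16 receptors and coreceptors, 0 were called, against 2.89% of all genes. The log2 fold change was below 0 in 11, against 54.8% of all genes, and the median was -0.31. *Fzd1*, a Frizzled receptor, had the lowest value at -1.69 ± 0.50 (SE, adjusted p = 0.103, edgeR's quasi-likelihood test, Benjamini-Hochberg adjusted). It was the only receptor of the 16 with all SAG mice below all DMSO mice, against 3.84% of all genes. *Fzd10* had -1.36 ± 1.72, while *Fzd5* had the highest value at 0.59 ± 0.46, followed by the coreceptor gene *Lrp5* at 0.27 ± 0.26. DESeq2 called 1 receptor lower and 0 higher, and edgeR without DMSO replicate 4 called 2 lower, against 3.23% and 2.17% of all genes called lower.

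Of the 10 secreted antagonists, 9 were tested and 0 were called, against 2.89% of all genes. Of these 9, 5 were below 0, against 54.8% of all genes, with a median of -0.49. The lowest values were those of *Sfrp5* (-1.13 ± 0.35) and *Sfrp4* (-0.99 ± 0.78), and the highest those of *Sfrp1* (0.70 ± 0.88) and *Frzb* (0.52 ± 0.69), all of which encode secreted Frizzled-related proteins. DESeq2 called 1 antagonist lower, as did edgeR without DMSO replicate 4, against 3.23% and 2.17% of all genes. Of the 12 target genes of the β-catenin branch, 11 were tested and 0 were called, against 2.89% of all genes. Of these 11, 9 were below 0, against 54.8% of all genes, with a median of -0.69. *Nkd2*, a feedback inhibitor, and *Lef1*, a transcription factor, had the lowest values (-1.66 ± 0.60 and -1.39 ± 0.40), and *Rnf43* and *Nkd1*, which also encode feedback inhibitors, the highest (1.11 ± 0.96 and 0.08 ± 1.02). DESeq2 called 2 of these target genes lower and edgeR without DMSO replicate 4 called 1, against 3.23% and 2.17% of all genes. The medians of these lists lay between that of all tested genes and the -1.01 of the chondrocyte markers, and a list's median carries no test here.

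**Figure D5:**
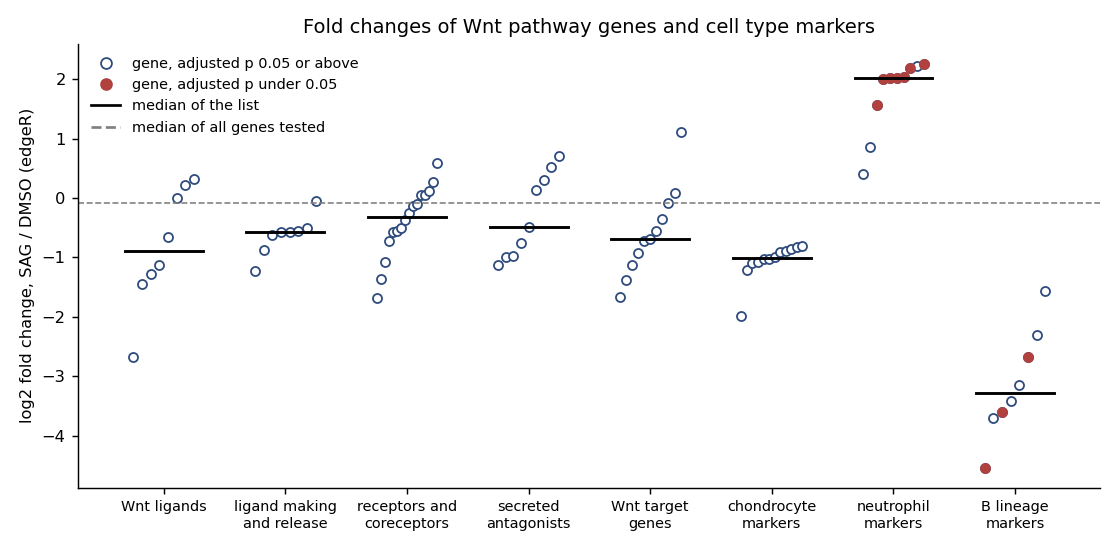
Log2 fold change (SAG over DMSO, edgeR) of each tested gene in 5 lists of Wnt pathway genes and 3 lists of cell type markers, with the list's median as a bar and the median of all tested genes as a dashed line. No Wnt pathway gene was called (filled circles), whereas 7 of 10 neutrophil markers were called higher, against 2.62% of all genes. Of 8 B lineage markers, 3 were called lower, against 0.266% of all genes.

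For the 4 ligands with a mean count of at least 100, the genes with the most similar pattern were found among 12622 genes of the same minimum by Pearson's r of log2 CPM over the 8 libraries. These values describe libraries that share 2 groups and 1 library that stands apart, and carry no test. The closest to *Wnt11* were *Adamts3* (r = 0.994), *Caml* (0.979), and *Arhgef5* (0.971), and with the group means removed r was 0.988, 0.959, and 0.941. *Adamts3* encodes an enzyme that processes procollagen. The closest to *Wnt5b* were *Cct2* (0.964), *Intu* (0.963), and *Nol4l* (0.963), and the closest to *Wnt4* were *Ccdc60* (0.970), *Mxra7* (0.967), and *Ogfod3* (0.959). For *Wnt5a*, whose pattern is dominated by the single count in DMSO replicate 4, they included *Msantd4* (0.997) and *Fitm2* (0.995). Among the ligands themselves, *Wnt5b* was most like *Wnt5a* (0.831) and *Wnt4* (0.812), and with the group means removed r was 0.890 and 0.809. Between *Wnt11* and *Wnt4*, *Wnt5b*, and *Wnt5a*, r was 0.552, 0.513, and 0.387, and with the group means removed the order turned, at 0.234, 0.459, and 0.679. Each r with *Wnt5a* includes its single count in DMSO replicate 4, and r without that library was not computed.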

How the data were processed

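Total RNA of sorted cells from 4 DMSO-treated and 4 SAG-treated mice was sequenced after extraction with a kit for small samples and preparation of stranded libraries for picogram inputs. The authors deposited a single table of unscaled read counts, with a value for every gene in every mouse. Submitters' processing notes name kallisto, DESeq2, and the build GRCm38. Their roles, versions, and settings are not given in the sources used here, and if kallisto made the table, the counts were estimated and rounded. Estimates split reads between similar transcripts.

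Of the 16536 genes, 16524 were found by symbol in GENCODE M21 (GRCm38), which gave coordinates and exonic length. Counts were tested with edgeR 4.0.16 in R 4.3.3 (filterByExpr, TMM, robust quasi-likelihood, Benjamini-Hochberg over 15421 genes, threshold 0.05, prior count 2 for log2 CPM). The common dispersion was 0.466, and the fit was checked on simulated data. Alternatives were DESeq2 1.42.0, limma 3.58.1 voom, other scalings and filters, a replicate block, and each library left out in turn. Each library is a different mouse. The text names all 10 ligands, the ligand-making list, the 2 lowest and 2 highest genes of each other pathway list, the 3 genes most like each abundant ligand, *Wnt8a*, *Wnt8b*, and genes that check the Hh pathway and the sort. One gene named by this rule is not reported here. The ligands and lists were chosen with earlier results of these data known.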

Additional observations from a re-analysis of the deposited data

Results flagged for a closer look

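In each group of 4 mice, the CPM of the ligands and the levels relative to chondrocyte markers were checked for a mouse whose gap to its nearest neighbor exceeded Dixon's critical value as a share of the group's range. Of 34 such groups of values, 7 contained one. For independent, normally distributed values about 1 in 20, or 1.7, would be expected. Several ligands held zeros and the same counts enter both scales, so the 7 cannot be read against that number. In the DMSO group these were *Wnt16* in DMSO replicate 4 (11.5 CPM, next value 0.863), *Wnt7b* in DMSO replicate 2 (4.53 CPM, next value 0.140), and *Wnt2b* in DMSO replicate 1 (4.10 CPM, next value 0.536). In the SAG group they were *Wnt10b* in SAG replicate 2 (1.85 CPM, next value 0.299) and *Wnt2* in SAG replicate 1 (0.604 CPM, next value 0.0951). All 5 belong to ligands that were at 0 in at least 2 mice, and each is a high value in a single mouse. The other 2 were low values on the log2 scale relative to the chondrocyte markers. *Wnt4* was at -10.12 in SAG replicate 4, with the next SAG mouse at -7.61, and *Wnt5a* was at -13.40 in DMSO replicate 4, with the next DMSO mouse at -8.02.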

How the results depend on the processing

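The log2 fold changes of *Wnt5b*, *Wnt11*, *Wnt4*, and *Wnt5a* stayed below 0 under all alternatives that gave a value, and of the 8 tested ligands *Wnt11* was the only one to pass the threshold under any. The number of ligands called was 1 with DESeq2, 1 with limma voom, and between 0 and 1 with a library left out (1 without DMSO replicate 4). Over all genes, 797 were higher and 390 lower with DESeq2, 995 and 398 with limma voom, between 80 and 1017 higher and between 4 and 343 lower with a library left out (both highest without DMSO replicate 4), and 87 lower when at least 10 counts were required in every library. With the replicate number as a block, 18 genes were lower and 0 ligands were called. The numbers mark different mice, and same-numbered libraries correlated at 0.120, 0.0219, 0.0195, and 0.0102 in their deviations from the group means. The sign of the low ligands depended on the setting. *Wnt2b* was at -0.61 with limma voom and between -0.17 and 2.35 with a library left out (-0.03, -0.10, and -0.17 without DMSO replicates 2, 3, and 4, and -0.11 and -0.09 without SAG replicates 1 and 4). *Wnt9a* lay between -0.13 and 1.95 with a library left out, at -0.10 and -0.07 without DMSO replicates 3 and 4 and at -0.13 and -0.12 without SAG replicates 1 and 4. *Wnt10b* was at -2.74 with limma voom, -0.013 with DESeq2 size factors, -0.041 with plain library size, -0.015 without a filter, -1.47 with the replicate block, -0.07 and -0.38 without DMSO replicates 1 and 4, and -2.39 without SAG replicate 2, the lowest of its values with a library left out, of which the highest was 0.42. *Wnt16* was at 0.086 with limma voom. For these 4 the cause was not tested. The median of all genes lay between -0.14 and 0.02 over the settings. The 6 low ligands were at 0 counts in 2 to 4 libraries each. The deepest library, SAG replicate 4, had 0 counts of *Wnt2*, *Wnt7b*, and *Wnt10b*. It had 100 counts of *Wnt2b*, 128 of *Wnt9a*, and 23 of *Wnt16*.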

Other observations

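*Wnt8a* and *Wnt8b*, the other ligand genes in the table, did not pass the filter on low counts and were not tested in the main fit. *Wnt8a* had 1, 0, 0, and 32 counts in DMSO replicates 1 to 4 and 48, 22, 6, and 7 counts in SAG replicates 1 to 4. *Wnt8b* had 0, 25, 0, and 3 counts in the DMSO mice and 35, 10, 127, and 3 counts in the SAG mice. In edgeR's quasi-likelihood test without a filter, the log2 fold change was 0.81 ± 1.87 (SE) for *Wnt8a* and 2.70 ± 1.88 for *Wnt8b*. Neither was called, with Benjamini-Hochberg adjusted p of 0.895 and 0.551. The largest level was 3.16 CPM for *Wnt8b* in SAG replicate 3.

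The genes used for the sort were present in all libraries. *Pthlh* was at 18.5 ± 3.15 CPM (SD, n = 4) in the DMSO group and 23.8 ± 4.78 CPM in the SAG group, and *Nt5e* at 228 ± 47.8 CPM and 159 ± 12.5 CPM. In DMSO replicate 4, where *Wnt5a* had 1 count, *Pthlh* was at 22.1 CPM and *Nt5e* at 269.6 CPM, so both were within or above the range of the other mice.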
